A study of Mus musculus with 8 samples.

Results

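Microglia, the resident macrophages of the brain, are recognised by a set of genes for surface receptors, their adaptor and a lysosomal protease. The 9 microglia identity genes Cx3cr1, P2ry12, P2ry13, Tmem119, Csf1r, Trem2, Tyrobp, Ctss and Gpr34 were followed here in purified mouse brain vessels. They were chosen by name, not by a rule on their values, among 22180 genes with a single symbol on the array. Earlier results of these data were known when they were chosen. Each member had 1 transcript cluster, the set of probes that the array summarises as a gene, so no choice between clusters was needed. Brain vessels came from 2-month-old male C57Bl6 mice, for which the labels give no genetic modification. In the digested group the vessels were subjected to partial enzymatic digestion of the basal lamina, the protein sheet around the vessel wall, and in the undigested group they were not. There were 4 arrays in the digested and 4 in the undigested group, and per the study's methods each library held vessels pooled from several mice. The tissue label calls both groups mechanically extracted, whereas the methods describe a warm incubation with Liberase and DNAse in place of homogenization for the digested one, so digestion and dissociation cannot be told apart.

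The members belong to a few linked signalling systems. CSF1R is the receptor for CSF1 and IL-34, on which microglia depend for survival, and CX3CR1 is the receptor for the neuronal and endothelial chemokine fractalkine. TREM2 senses lipids and signals through the adaptor DAP12, encoded by Tyrobp, while P2RY12 and P2RY13 bind ADP, GPR34 binds lysophosphatidylserine and cathepsin S, encoded by Ctss, is a lysosomal protease that also acts outside the cell. P2ry12, P2ry13, Tmem119 and Gpr34 are commonly taken as microglia-restricted in the brain, although platelets also carry P2RY12, whereas Csf1r, Cx3cr1, Trem2, Tyrobp and Ctss are also used by other macrophages.

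Levels are log2 signals, and every difference is digested minus undigested on the log2 scale. Levels of different genes come from different probes and are not set against each other. Over 27658 transcript clusters above background, arrays of the digested group correlated at 0.976 to 0.982 and those of the undigested group at 0.972 to 0.986, against 0.946 to 0.962 between the groups. Undigested arrays 1 and 2 (18.89 and 17.89) stood apart from undigested arrays 3 and 4 (-25.83 and -20.13) on the second principal component, a split that no label names. Digested arrays 1 to 4 were also spread on it, at 7.88, 18.76, 0.58 and -18.04. All 33 measured endothelial markers and all 10 smooth muscle markers lay above background, as did all 16 astrocyte markers. Of 18 measured blood leukocyte markers 14 lay under it. Background was set at 4.68, a level that 90% of the clusters of olfactory and vomeronasal receptors, genes used mainly in the nose, did not exceed on average.

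Upon digestion, 2 of the 9 members fell, Csf1r and Tyrobp, both of the class shared with other macrophages, and 0 rose. Of the other 7, Gpr34 lay under the background floor and 6 did not pass the test, with differences from -0.37 for Ctss to 0.0042 for Cx3cr1. Over all clusters tested 10.2% were lowered and 11.1% raised at the same threshold, a limma adjusted p of 0.05. The median difference was -0.31 over the 9 members and -0.02 over all clusters kept. With only 8 members tested, a count of 2 is given as a description beside that background. Markers of other cell types moved as well. Of the astrocyte markers 12 of 16 fell (median -1.36), of the pericyte markers 8 of 12 (median -0.81) and of the endothelial markers 17 of 33 (median -0.43), with 0 that rose in each list. Of 11 choroid plexus epithelium markers 10 rose and 0 fell (median 1.49). Of 12 neuron markers 4 rose and 0 fell (median 0.42), and of 10 oligodendrocyte markers 4 rose and 1 fell (median 0.23). Of 10 smooth muscle markers 1 rose and 1 fell (median 0.56). The part of these cell types in the members' differences was not tested.

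**Figure D1:**
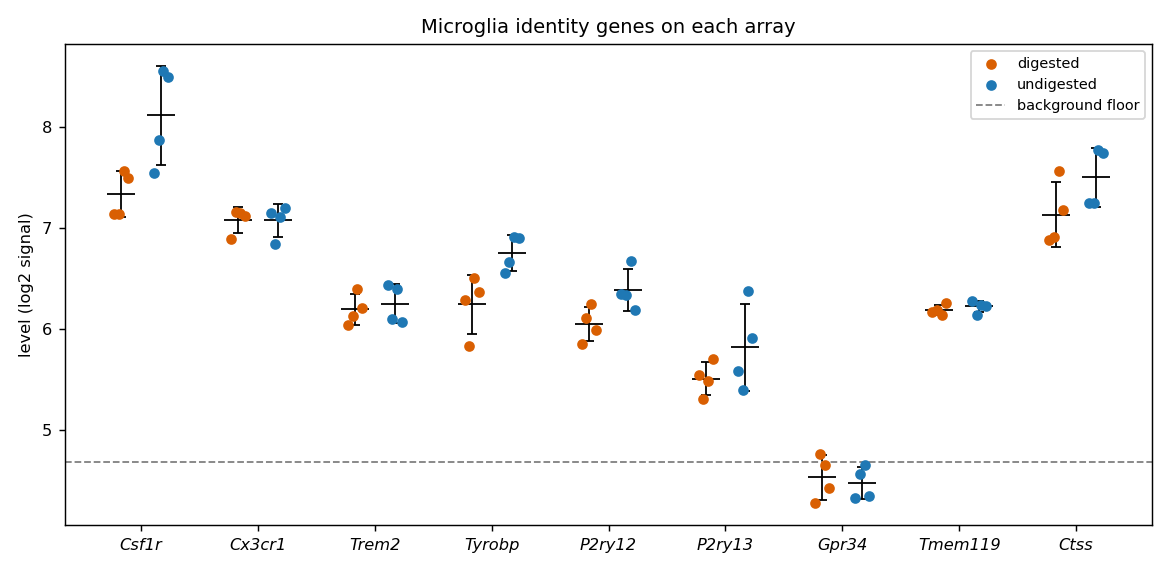
Level of each microglia identity gene (log2 signal, y axis) on the 4 digested (orange, left) and 4 undigested (blue, right) arrays, with mean and SD as black bars and the background floor of 4.68 dashed. The 2 groups separate without overlap for Tyrobp only, and Gpr34 lies around the floor in both.

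Csf1r, the growth factor receptor gene of the mononuclear phagocyte lineage, showed the largest difference among the members. Its levels were 7.14, 7.14, 7.57 and 7.50 on digested arrays 1 to 4, against 7.55, 7.87, 8.56 and 8.50 on undigested arrays 1 to 4. The highest digested array, number 3, lay just above the lowest undigested array, number 1, so the groups overlapped. Csf1r averaged 7.34 ± 0.23 in digested and 8.12 ± 0.49 in undigested vessels (SD, n = 4 each), a 1.72-fold decrease with a difference of -0.78 (SE 0.23, 95% interval -1.29 to -0.27, limma adjusted p = 0.0378). Only 2.74% of all clusters kept had a lower difference. The call was lost when undigested array 2, 3 or 4 or digested array 1, 2 or 4 was left out, with differences from -0.97 to -0.64 over the 8 fits that left out 1 array and adjusted p up to 0.0915. Without undigested arrays 3 and 4 the difference was -0.37 (adjusted p = 0.172).

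Both ligand genes of this receptor also fell. Csf1 averaged 8.11 in digested and 8.62 in undigested vessels (difference -0.51, adjusted p = 0.0212), and Il34 averaged 8.07 and 8.60 in the same order of groups (difference -0.53, adjusted p = 0.00887). The cells that carried the ligand signal were not identified. Of the 9 measured ligand and lineage transcription factor genes, 4 fell, 5 did not pass and 0 rose, with a median of -0.28. The other 2 that fell were Fli1 (-0.64, adjusted p = 0.00561), an ETS factor gene that endothelium also expresses, and Sall1 (-0.59, adjusted p = 0.0256), a transcription factor gene of microglial identity. Spi1, which encodes the myeloid factor PU.1, differed by -0.28 (adjusted p = 0.0705) and all its digested arrays lay below the undigested ones. Irf8 (-0.05), Runx1 (0.02) and Mef2c (0.01) did not pass the test. The count that fell was 2 without undigested arrays 1 and 2.

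Tyrobp, the gene of the DAP12 adaptor that carries the signal of TREM2 and related receptors, was the only member whose groups did not overlap, a pattern that 12.5% of all clusters showed in this direction. Tyrobp had 6.29, 5.83, 6.51 and 6.37 on the digested arrays, against 6.56, 6.66, 6.92 and 6.90 on the undigested arrays. Digested array 2 was the lowest, and the gap between the groups, from digested array 3 to undigested array 1, was narrow. The mean was 6.25 ± 0.29 in digested and 6.76 ± 0.18 in undigested vessels (SD, n = 4 each), 1.42-fold lower, with a difference of -0.51 (SE 0.15, 95% interval -0.85 to -0.17, limma adjusted p = 0.0422). As for Csf1r, the call was lost without undigested array 2, 3 or 4 or digested array 1, 2 or 4, with differences from -0.60 to -0.37 and adjusted p up to 0.098. It was also lost without undigested arrays 3 and 4 (-0.36, adjusted p = 0.221).

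Trem2, whose product is retained at the cell surface by DAP12, did not pass the test. Trem2 had 6.05, 6.13, 6.40 and 6.21 on the digested and 6.44, 6.10, 6.40 and 6.07 on the undigested arrays. The groups overlapped throughout, and the difference of -0.06 had a 95% interval of -0.32 to 0.21 (adjusted p = 0.772). The per-array difference Trem2 minus Tyrobp was -0.05 ± 0.24 in digested and -0.51 ± 0.29 in undigested vessels, a change of 0.45 with an exact two-sided permutation p of 0.0857. This is 0.171 when adjusted over the 4 pairs of members compared, so the receptor and its adaptor were not shown to change unequally. With 4 arrays per group the smallest p that the 70 assignments of the arrays allow is 0.0286.

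Of 13 measured partners, kinases, phosphatases, sheddases and a ligand of this receptor pair, 4 fell, 9 did not pass and 0 rose, with a median of -0.12. Apoe, a lipoprotein gene whose product is a TREM2 ligand, fell by 0.52 (adjusted p = 0.0164), Inpp5d, a lipid phosphatase gene, by 0.37 (adjusted p = 0.0221), the tyrosine kinase gene Syk by 0.33 (adjusted p = 0.0239) and Adam10, a sheddase gene, by 0.31 (adjusted p = 0.0226). Which cells of the vessel preparations carried these 4 falls was not measured. Hcst, which encodes the sister adaptor DAP10 and lies next to Tyrobp in the genome, differed by -0.03 (adjusted p = 0.902). Plcg2, the phospholipase gene of the same pathway, had 7.71 in digested and 7.15 in undigested vessels, with overlapping arrays (0.56, adjusted p = 0.0748). The count that fell was 1 without undigested array 1 or digested array 1 and 2 without undigested array 2 or digested array 3.

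**Figure D2:**
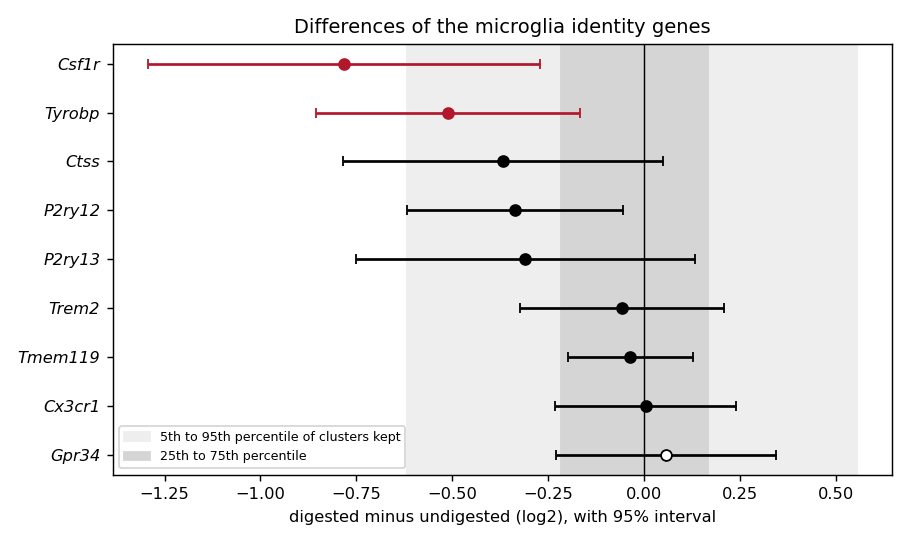
Difference of each member, digested minus undigested (log2, x axis), with its 95% interval. Red marks the 2 members past the test, the open circle Gpr34 under the background floor, and the grey bands the middle 50% and middle 90% of all 27658 clusters kept. Csf1r lies outside both bands, and Trem2, Tmem119, Cx3cr1 and Gpr34 lie inside the inner one.

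Cx3cr1, the fractalkine receptor gene and a widely used microglial reporter locus, was at the same mean level in both groups. Its values were 6.89, 7.16, 7.16 and 7.12 on the digested arrays and 7.15, 6.85, 7.11 and 7.20 on the undigested arrays. Each group held 1 array, digested 1 and undigested 2, below the other 3. Cx3cr1 averaged 7.08 ± 0.13 in digested and 7.08 ± 0.16 in undigested vessels (SD, n = 4 each), and the 95% interval of the difference, -0.23 to 0.24, does not reach the change of Csf1r (adjusted p = 0.983). Csf1r and Cx3cr1 were not among the pairs tested against each other. The ligand gene Cx3cl1 had 9.10 in digested and 9.07 in undigested vessels (0.03, adjusted p = 0.869). Of the proteases that release fractalkine from the cell surface, Adam10 fell, as given above, and Adam17 differed by -0.12 (adjusted p = 0.29).

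The nucleotide receptor genes P2ry12 and P2ry13 were lower on average in digested vessels without passing the test. P2ry12 had 5.85, 6.11, 6.25 and 5.997 on the digested and 6.35, 6.34, 6.68 and 6.19 on the undigested arrays. Digested array 3 exceeded undigested array 4, and the other digested arrays lay below every undigested one. The difference of -0.34 had a 95% interval of -0.62 to -0.05, which leaves out 0, but its limma adjusted p was 0.087. P2ry13 had 5.54, 5.31, 5.49 and 5.70 on the digested and 5.58, 5.40, 6.38 and 5.92 on the undigested arrays. Undigested arrays 3 and 4 carried the difference of -0.31 (95% interval -0.75 to 0.13, adjusted p = 0.295), which was 0.02 once they were left out. The per-array difference P2ry12 minus P2ry13 was 0.54 ± 0.28 in digested and 0.57 ± 0.34 in undigested vessels, a change of -0.03 (exact two-sided permutation p = 0.943, adjusted over 4 pairs 0.943).

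Both genes lie side by side inside the span of Med12l, together with P2ry14 and Gpr171. Med12l differed by 0.21 (adjusted p = 0.212) and Gpr171 by 0.03 (adjusted p = 0.903), whereas P2ry14, the receptor gene for UDP-sugars, fell by 0.96 (adjusted p = 0.00242). The table of gene spans gives no strand, so probes of the overlapping genes were not separated further. A purinergic list outside the members, built around nucleotide and adenosine signalling, also held Gpr171, Kcnk13 and Panx1. Its adenosine receptor gene Adora3 lay under the floor. Among the 11 measured genes of this list, 5 fell, 6 did not pass and 0 rose, with a median of -0.39. Besides P2ry14 these were the ATP-gated channel genes P2rx7 (-0.62, adjusted p = 0.00945) and P2rx4 (-0.52, adjusted p = 0.00817), and the receptor genes P2ry2 (-0.47, adjusted p = 0.0449) and P2ry6 (-0.42, adjusted p = 0.0315). Entpd1, which encodes the ectonucleotidase CD39 that hydrolyses extracellular ATP and ADP, differed by 0.09 (adjusted p = 0.666). The count that fell was 3 without undigested array 4 or digested array 1, 2 or 4. Platelet markers, which bear on P2ry12, showed 0 of 6 measured genes past the test, and their mean level ran from 5.09 to 5.47 on digested and from 5.31 to 5.42 on undigested arrays.

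Gpr34, the lysophosphatidylserine receptor gene, was at background. It had 4.28, 4.76, 4.65 and 4.43 on the digested and 4.33, 4.56, 4.65 and 4.35 on the undigested arrays, and the mean over the 8 arrays lay under the background level of 4.68. Without the filter on low values its difference of 0.06 had an adjusted p of 0.821. Its gene lies inside the span of Cask, a scaffold protein gene whose level differed by -0.08 (adjusted p = 0.569). P2ry12 minus Gpr34 was 1.52 ± 0.12 in digested and 1.92 ± 0.13 in undigested vessels, without overlap (change -0.39, exact two-sided permutation p = 0.0286, the smallest possible, adjusted over 4 pairs 0.114). P2ry13 minus Gpr34 changed by -0.37 (exact two-sided permutation p = 0.286, adjusted 0.381). Since Gpr34 was at background, both pairs mainly restate the other gene.

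Tmem119, a membrane protein gene of microglia, varied least of the members. Tmem119 had 6.17, 6.19, 6.14 and 6.26 on the digested and 6.28, 6.14, 6.24 and 6.24 on the undigested arrays. The whole span over the 8 arrays was small and the groups overlapped (difference -0.04, 95% interval -0.20 to 0.13, adjusted p = 0.762).

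Ctss, the cathepsin S gene, had 6.88, 6.92, 7.57 and 7.18 on the digested and 7.25, 7.25, 7.77 and 7.74 on the undigested arrays. Digested array 3 lay above undigested arrays 1 and 2, and within each group arrays 3 and 4 were higher than arrays 1 and 2. The difference of -0.37 had a 95% interval of -0.79 to 0.05 (adjusted p = 0.191). Of 18 other lysosomal and cathepsin inhibitor genes measured, 5 rose, 1 fell and 12 did not pass, with a median of 0.19. Those that rose were the cathepsin genes Ctsd (0.72, adjusted p = 0.00638), Ctsb (0.52, adjusted p = 0.0238) and Ctsa (0.37, adjusted p = 0.0254), the lysosomal membrane protein gene Lamp2 (0.65, adjusted p = 0.0153) and the cathepsin inhibitor gene Cstb (0.44, adjusted p = 0.00468). Ctsh fell by 0.51 (adjusted p = 0.00652). Many cell types express these genes, and which cells carried the signal was not measured. The count that rose was 1 without undigested arrays 1 and 2 and 3 without undigested array 1 or 2 or digested array 3 or 4.

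Promoter sequences from RefSeq (GRCm38.p6, 250 bases before to 50 after the gene start) were found for 5 members, P2ry12, P2ry13, Ctss, Cx3cr1 and Trem2. Since PU.1 drives many microglial genes, AGGAAGT was searched on both strands. PU.1 shares this type of site with other ETS factors, such as the product of Fli1, and the match does not tell them apart. AGGAAGT occurred in P2ry12 and Ctss, and in 9.35% of all 32851 promoter windows. The 2 sites are shown with the match in capitals, which for Ctss reads as the reverse complement.
P2ry12, chr3:59263019-59263048, minus strand: agctaacaagaAGGAAGTtccccagtgaca
Ctss, chr3:95526773-95526802, plus strand: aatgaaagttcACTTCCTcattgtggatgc
The match in P2ry12 begins 52 bases before the gene start and that in Ctss 2 bases before it. Neither gene passed the test, with -0.34 for P2ry12 and -0.37 for Ctss, and binding of PU.1 was not measured.

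The members did not all follow the split between undigested arrays 1 and 2 and undigested arrays 3 and 4. Within the undigested group, arrays 3 and 4 exceeded arrays 1 and 2 by 0.82 for Csf1r, 0.66 for P2ry13, 0.51 for Ctss and 0.30 for Tyrobp, against 0.09 for P2ry12, 0.03 for Tmem119 and -0.03 for Trem2. Within the digested group the same arrays differed by 0.39 for Csf1r, 0.47 for Ctss and 0.38 for Tyrobp. The change upon digestion, taken between arrays numbered 1 and 2 and then between arrays numbered 3 and 4, was -0.57 and -0.996 for Csf1r, -0.55 and -0.47 for Tyrobp, -0.35 and -0.38 for Ctss, -0.36 and -0.31 for P2ry12 and -0.07 and -0.55 for P2ry13. The labels do not say whether the numbers pair the arrays, so these values only describe the split. Ctss, P2ry12 and P2ry13 did not pass the test over all 8 arrays.

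**Figure D3:**
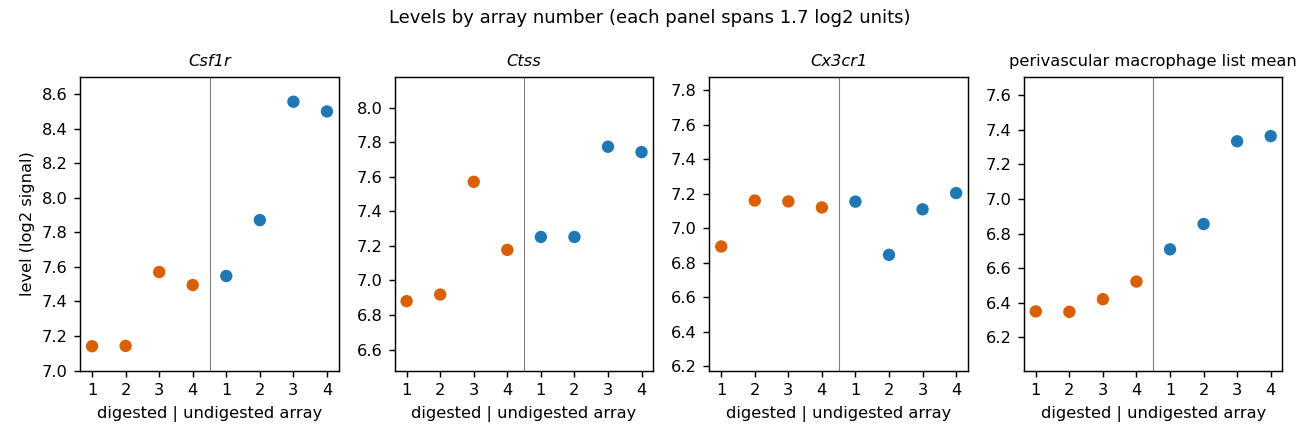
Levels (log2 signal, y axes of equal span) of Csf1r, Ctss and Cx3cr1 and the mean level of 15 perivascular macrophage genes, by array, digested (orange, left) and undigested (blue, right). Csf1r and the macrophage mean are highest on undigested arrays 3 and 4, and Cx3cr1 is level across the arrays apart from digested array 1 and undigested array 2.

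Perivascular macrophages, which lie along the vessel wall, also use the members of the shared class, Csf1r, Cx3cr1, Trem2, Tyrobp and Ctss. Of these 5, 2 fell and 3 did not pass. The paper states, from an earlier study, that microglia are lost when brain vessels are isolated mechanically. Of 15 measured perivascular macrophage markers 10 fell, 5 did not pass and 0 rose, with a median of -0.76, and Cd209b and Clec10a lay under the floor. Their mean level was 6.35, 6.35, 6.42 and 6.52 on digested arrays 1 to 4, against 6.71, 6.85, 7.33 and 7.36 on undigested arrays 1 to 4. Undigested arrays 3 and 4, the highest for Csf1r, were also the highest for these markers. The pattern was not particular to them. On undigested arrays 1 to 4 the astrocyte markers averaged 8.21, 8.25, 8.63 and 8.60, and the choroid plexus epithelium markers 8.87, 8.73, 9.58 and 9.58. The endothelial markers (10.22, 10.26, 10.02 and 9.89) and the pericyte markers were lower on undigested arrays 3 and 4. Mrc1, the mannose receptor gene, led the perivascular macrophage list with a difference of -1.45 (adjusted p = 0.00547). Of 22 measured genes common to myeloid cells 9 fell, 13 did not pass and 0 rose (median -0.46), among them Lyz2 (-0.93, adjusted p = 0.00107), the lysozyme gene, and Cd68 (-0.76, adjusted p = 0.0177), a lysosomal glycoprotein gene of macrophages. This count of 9 was 5 without undigested array 3 or digested array 1, 6 without undigested array 4 or digested array 2, and 3 without undigested arrays 3 and 4. The part of macrophages in the lower Csf1r and Tyrobp levels was not tested, and on bulk arrays fewer cells of a type and less RNA per cell cannot be told apart.

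Further microglia genes outside the 9 members that passed the test mostly fell. Of 21 measured above background, 9 fell, 2 rose and 10 did not pass, with a median of -0.39, and Slc2a5 and Trem1 lay under the floor. Slco2b1, an organic anion transporter gene that endothelium also expresses, fell by 1.09 (adjusted p = 0.002), and the complement genes C1qa and C1qb by 0.82 (adjusted p = 0.00947) and 0.79 (adjusted p = 0.0357). C1qc, of the same complement family, differed by -0.72 with overlapping arrays and did not pass (adjusted p = 0.0629). The 2 that rose were Ltc4s, an enzyme gene of leukotriene synthesis (1.55, adjusted p = 0.00872), and Bin1, a membrane-bending protein gene (0.47, adjusted p = 0.0182). Which cells carried the Bin1 signal was not measured. Ltc4s had 9.11, 8.76, 9.49 and 9.47 on the digested and 7.27, 6.92, 8.34 and 8.10 on the undigested arrays. The mean level of the choroid plexus epithelium markers, 10.53, 10.26, 10.81 and 10.83 on the digested and 8.87, 8.73, 9.58 and 9.58 on the undigested arrays, was likewise higher on arrays 3 and 4 within each group, and its part in the rise of Ltc4s was not tested. Named after their values were seen, Fcrls fell by 0.76 (adjusted p = 0.00507) and Olfml3 by 0.59 (adjusted p = 0.00645), while Siglech, a microglial lectin gene, had 5.79 in both digested and undigested vessels (adjusted p = 0.994). The count that fell was 5 without digested array 1, 2 or 4 or without undigested arrays 3 and 4, and 6 without undigested array 4.

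**Figure D4:**
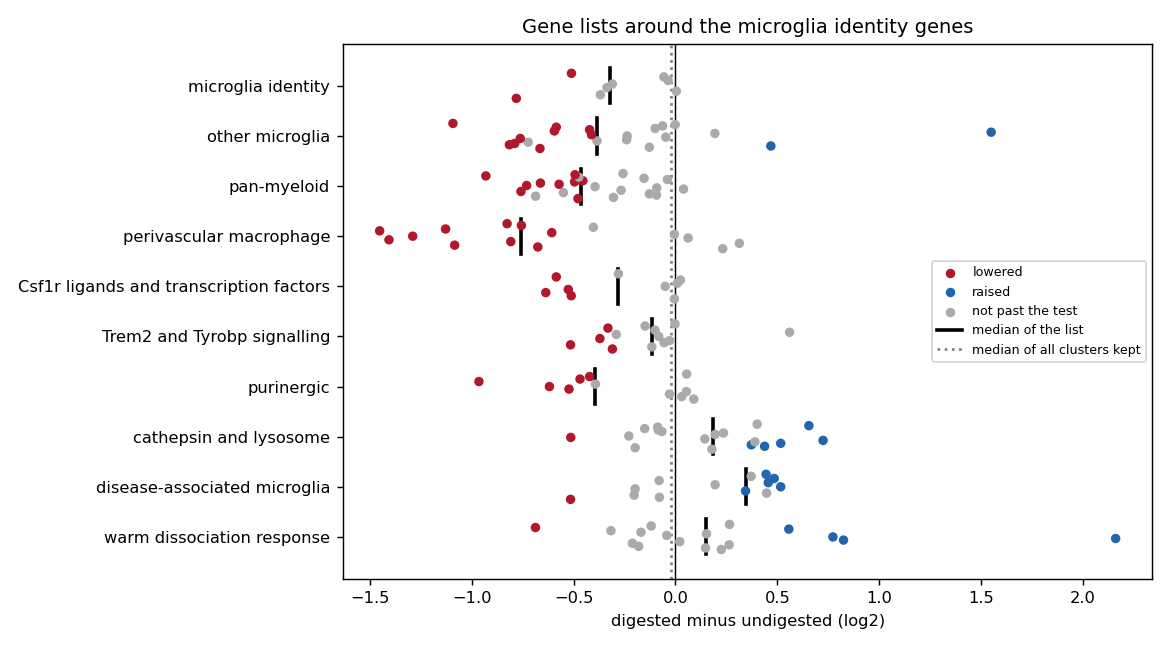
Difference of each measured gene above background, digested minus undigested (log2, x axis), in 10 gene lists, with genes lowered in red, raised in blue and not past the test in grey, the list median as a black bar and the median of all clusters kept, -0.02, dotted. Medians lie at -0.76 for perivascular macrophage, -0.39 for other microglia and 0.19 for lysosomal genes.

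Genes that mark a changed microglial state gave no single direction. Of 13 measured genes that rise in microglia of diseased brain, 5 rose, 1 fell and 7 did not pass, with a median of 0.34, and the defining members Itgax and Clec7a lay under the floor. The 5 that rose, Ctsb, Lgals3, Fth1, Timp2 and Cd9, are expressed by many cell types, and Apoe fell. The count that rose was 1 without undigested array 1 or 2 or digested array 3 or 4 and 3 without digested array 1. Of 17 measured early genes that microglia are known to induce on warm enzymatic dissociation, 4 rose, 1 fell and 12 did not pass (median 0.15). Fos (2.16, adjusted p = 0.000463), Egr1 (0.82, adjusted p = 0.00997), Fosb (0.77, adjusted p = 0.0104) and Junb (0.56, adjusted p = 0.0316), all immediate early transcription factor genes, rose, and Nfkbia, an inhibitor gene of NF-kappaB, fell by 0.69 (adjusted p = 0.0333). Which cells of the vessel preparations carried these changes was not measured, so they are not a readout of microglia. The cytokine genes Tnf, Il1a, Il1b and Cxcl2 lay under the floor by their mean over the 8 arrays, and Ccl3 (0.26) and Ccl4 (-0.21) did not pass. Il1b averaged 4.79 in digested and 4.18 in undigested vessels, with overlapping arrays. Its difference of 0.62 had a limma adjusted p of 0.0847 without the filter on low values. The median of this list was -0.21 without undigested array 3, the count that rose was 1 without undigested arrays 3 and 4, and Nfkbia passed only without undigested array 3 or digested array 1 among the fits that left out 1 array. TGF-beta genes, which maintain the microglial state, held 2 of 10 that fell, the receptor gene Tgfbr2 (-0.60, adjusted p = 0.00428) and Nrros (-0.45, adjusted p = 0.00638), whose product presents TGF-beta on microglia, and Tgfb1 itself differed by -0.22 (adjusted p = 0.194). With arrays centred on their median 2 TGF-beta genes also rose, against 0 in the values as deposited.

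Likeness to each member was measured as Pearson's r of the log2 values over the 8 arrays, among 6954 genes above background that varied, and is given as a description. Csf1r was most like Clec4a1, a C-type lectin receptor gene (r = 0.985), Adam12 (0.981) and Dnajc6 (0.979). Tyrobp was most like Gemin8 (0.986), Daw1 (0.976) and Mir107 (0.974), and Ctss most like Gas2l2 (0.994), C130026L21Rik (0.98) and Ulk4 (0.964). P2ry13 was most like Efhb (0.983), Ttc25 (0.961) and Cyp2s1 (0.958), and P2ry12 most like Asgr1 (0.94), Gask1a (0.936) and Col23a1 (0.931). No member was among the 3 genes most like another member. Genes could be listed only with an SD of at least 0.2 over the 8 arrays. Cx3cr1 (SD 0.13), Tmem119 (0.05), Trem2 (0.16) and Gpr34 (0.18) fell short, so their absence was fixed beforehand. The genes named as most alike share the arrays and the group difference with the member they resemble.

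A change of scaling moved the differences of all genes alike. With each array centred on its median they moved by 0.03, and 2 members fell. With arrays centred on the endothelial genes, which themselves had a median difference of -0.43, every difference moved by 0.51, the median of all clusters became 0.49 and lowered clusters made up 2.02% of the calls, against 47.9% in the values as deposited. Csf1r was then at -0.27 (adjusted p = 0.383) and Tyrobp at -0.00053 (adjusted p = 0.998), both below that median, and neither passed. Cx3cr1 (0.51), Tmem119 (0.47) and Trem2 (0.45) passed as raised, near the shift of all clusters, and P2ry13 (0.20), P2ry12 (0.17) and Ctss (0.14) did not pass. The place of each member among all clusters is the same under these centrings, and the signs follow from the uniform shift. Counts of calls in the gene lists moved with it. After this centring 1 of the other microglia genes was lowered and 7 raised, 0 of the pan-myeloid genes lowered and 4 raised, 3 of the perivascular macrophage genes lowered and 2 raised, and 0 of the ligand and lineage genes lowered and 3 raised. Of the Trem2 and Tyrobp signalling genes 0 were lowered and 6 raised, of the purinergic genes 1 and 4, and of the TGF-beta genes 0 and 5. Genes raised numbered 14 in the lysosomal, 9 in the disease-associated and 10 in the warm dissociation list, with 0 lowered in each.

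**Figure D5:**
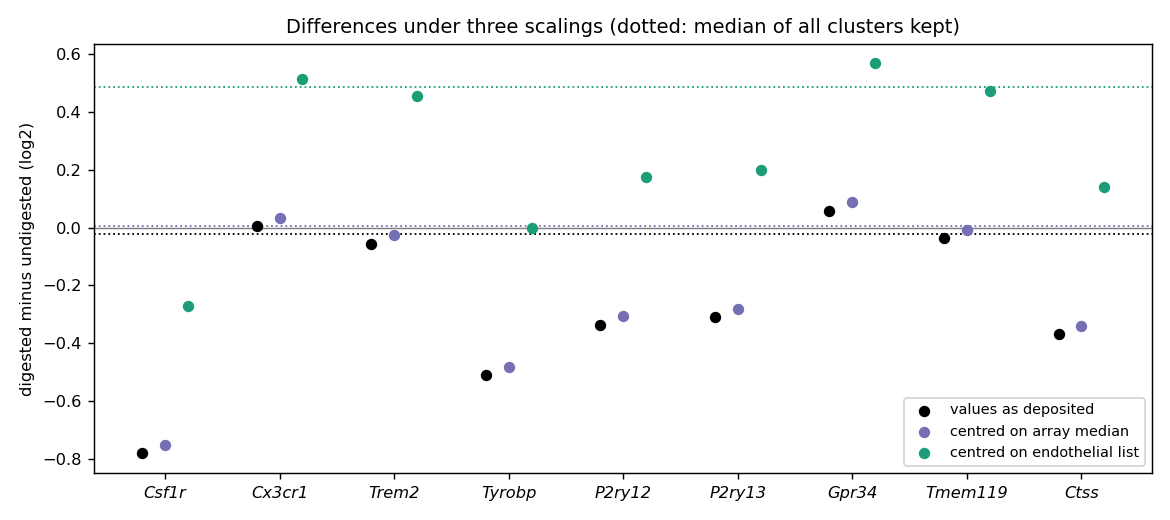
Difference of each member, digested minus undigested (log2, y axis), with the values as deposited (black), arrays centred on their median (purple) and arrays centred on the endothelial genes (green), and the median of all clusters kept under each as a dotted line. Endothelial centring moved that median to 0.49 by adding 0.51 to every gene, so that the order of the members is the same under each scaling.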

How the data were processed

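Each of 8 preparations of brain vessels gave RNA for 1 Affymetrix Mouse Gene 2.0 array. The table deposited by the authors holds log2 values, 1 per transcript cluster and array. The authors name Expression Console, EASANA with FAST DB annotation, antigenomic background correction and quantile normalization. Whether this table had that normalization is not stated, nor is a genome build. The number of arrays limits the precision, and p-values measure the spread between pooled preparations.

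Symbols came from the platform table (41345 clusters, of which 23521 had a single symbol, 1820 several and 16004 none). Clusters with a mean above the 90th percentile of 1400 olfactory and vomeronasal receptor clusters were kept (27658). Gene lists held the cluster with the highest mean per gene. Differences were fitted by limma (version 3.58.1, R 4.3.3) with lmFit and eBayes and tested two-sided at a Benjamini-Hochberg adjusted p of 0.05 over all clusters kept, and 4 pairs of members by exact permutation of per-array differences. The fit was tested on simulated data. The members, lists, pairs and alternatives were chosen with earlier results of these data known. Named genes were the members, up to 4 of each list with the largest change past the test, the most abundant ones, ligands and partners, and the 3 genes most like each member. Alternatives were 2 centrings, a second quantile normalization, no or a stricter filter, array weights, a robust eBayes with a trend, the methods' t-test, the replicate number as a block, leaving out arrays, and averaging the clusters of each gene. Figures were drawn in Python 3.11.15 with matplotlib 3.10.9.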

Additional observations from a re-analysis of the deposited data

Results flagged for a closer look

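Of 26 sets of 4 values checked, those of the 9 members and the 4 pairs in each group, 2 held an array far from the other 3 of its group, and chance gives about 1 in 20. Cx3cr1 was 6.89 on digested array 1, against 7.12 to 7.16 on the other 3 digested arrays. Without it the difference of Cx3cr1 was 0.07. P2ry12 minus Gpr34 was 1.34 on digested array 2, against 1.57 to 1.60 on the other 3 digested arrays, and Gpr34 was at background.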

How the results depend on the processing

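Csf1r passed the test as lowered in 10 of the 20 alternatives and Tyrobp in 8, and neither passed as raised in any of them. With endothelial centring, which moved every difference by 0.51, 17311 clusters passed, against 5872, 0 members were lowered and 3 raised, the median of the members was 0.20, Tyrobp was at -0.00053 (adjusted p = 0.998), and Tmem119 (0.47), Trem2 (0.45), P2ry13 (0.20), P2ry12 (0.17) and Ctss (0.14) changed sign through that shift, all below the median of all clusters of 0.49. The number of members lowered was 1 after a second quantile normalization, with Tmem119 at 0.029 and Trem2 at 0.0049, 0 with no filter on low values (limma adjusted p = 0.0523 for Csf1r and 0.0591 for Tyrobp) and 0 with the methods' t-test. Leaving out 1 array at a time gave 4047 to 5610 clusters past the test, 0 to 2 members lowered, a median of -0.35 to -0.12 and P2ry12 minus P2ry13 of -0.12 to 0.10, with Cx3cr1 at -0.073 to 0.067, Trem2 at -0.12 to 0.0043 and Gpr34 at -0.020 to 0.14. Without undigested arrays 1 and 2 there were 2415 clusters past the test and 1 member lowered, Cx3cr1 was -0.074 and P2ry12 minus P2ry13 was 0.26. Without undigested arrays 3 and 4, 0 members were lowered, the median was -0.073 and P2ry13 was 0.019. With the replicate number as a block, 4 members were lowered, P2ry12 (limma adjusted p = 0.048) and Ctss (0.0376) in addition, and 5442 clusters passed. The labels give no pairing, and the correlations of the deviations of same-numbered arrays were 0.06, 0.18, -0.04 and 0.18, with 4 of the 8 arrays closest to their own number. Apart from that shift, the causes of these changes were not tested. Signal limits Gpr34, which was not above background.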
